A study of Mus musculus with 28 samples.

Results

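Selenow, Selenoh, Gpx1, Gpx3 and Msrb1 encode 5 of the mouse's selenoproteins, and their messenger RNAs are the ones usually named as sensitive to selenium supply. They are named genes from a list of 24 selenoprotein genes, and the rule for them uses no measured value. The choice was made with earlier results of these data known, so it is not independent of them. Each gene had its own row among the 55416 gene identifiers of every count file. Their levels were read in cortex and heart of C57BL/6J mice with the Y334C allele of Sepsecs and in controls. QuantSeq 3′ mRNA sequencing gives about 1 tag at the 3′ end of each polyadenylated transcript. The CPM of different genes (counts scaled to a library total of 1000000) were therefore set side by side without dividing by length. The gene annotation used for counting is not given, and how fully each gene's 3′ end was counted was not tested. At postnatal day 1 (P1) there were 3 control mice, labelled Y334C WT, and 3 Sepsecs Y334C mutants for each tissue. At postnatal day 75 (P75) there were 3 controls, labelled Gpx4 WT, and 5 mutants carrying Sepsecs Y334C together with Gpx4 U/C for each tissue. The labels give no Sepsecs genotype for the P75 controls and no Gpx4 genotype for any P1 mouse. Both alleles therefore differ in name between the P75 groups, and age and the Gpx4 allele cannot be told apart when P75 is set against P1.

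Selenocysteine is inserted during translation at a UGA codon, which elsewhere ends a protein, with the help of a hairpin in the 3′ part of the mRNA (SECIS) and a dedicated tRNA. SEPSECS is the enzyme that completes selenocysteine on that tRNA. When selenium or charged tRNA is short, UGA can be read as a stop, and an mRNA with an exon junction downstream of a stop can be degraded by nonsense-mediated decay (NMD). In selenium-deprived animals selenoprotein mRNAs decline in a hierarchy: Gpx1, Selenow and Selenoh are among the first to fall, and mRNAs such as Gpx4 and Txnrd1 are known to be spared.

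Since the UGA codon is the feature the 5 mRNAs share, its surroundings are shown for each gene, read from the GENCODE M21 transcripts (GRCm38) in the sense of the mRNA, 5′ to 3′. The capitals mark the selenocysteine codon, with 12 bases on each side.
Selenow: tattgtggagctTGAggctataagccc
Selenoh: cattgtacgagcTGAcgcgtgtacggc
Gpx1: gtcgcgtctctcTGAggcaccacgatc
Gpx3: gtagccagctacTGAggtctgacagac
Msrb1: caatcaagattcTGAatatttagcagc
Selenow and Selenoh, both small thioredoxin-like proteins, have the cysteine codon tgt 3 codons before TGA, and the other 3 genes have no cysteine codon at that place.

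The Selenow gene (ENSMUSG00000041571, chr7:15917208-15922402, minus strand) carries its codon at chr7:15920464-15920466, in exon 2 of 6, for residue 13 of an 88-residue protein. In Selenoh (ENSMUSG00000076437, chr2:84669215-84670770, minus strand) the codon lies at chr2:84670381-84670383, in exon 2, for residue 38 of 116. Selenoh is overlapped on its own strand by the readthrough model Gm28635, which had 0 counts in all 28 libraries. Gpx1 (ENSMUSG00000063856, chr9:108338903-108340343, plus strand) has the codon at chr9:108339451-108339453, in exon 1 of 2, for residue 47 of 201. Gpx3 (ENSMUSG00000018339, chr11:54902453-54910377, plus strand) has it at chr11:54907256-54907258, in exon 2 of 5, for residue 73 of 226. In Msrb1 (ENSMUSG00000075705, chr17:24736642-24742778, plus strand) it lies at chr17:24740158-24740160, near the end of the reading frame, for residue 95 of 116. All 5 codons have an exon junction downstream. The distance from the codon to the last junction was 243 bases in Selenow, 240 in Gpx3, 105 in Gpx1, 136 in the longest principal Selenoh transcript and 34 in the longest principal Msrb1 transcript. The other principal transcripts gave 241 and 266 bases for Selenoh and 66 for Msrb1, and all later distances are those of the longest one.

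The 28 libraries held 2997738 to 8779631 counts, so that 1 count was worth 0.114 to 0.334 CPM, and each member had between 16 and 5393 counts in every library. All 5 passed the filter on low counts in every comparison. Tissue markers followed the labels: 6 neuron genes summed to 2709 to 7481 CPM in cortex and 15.9 to 63.2 in heart, and 7 cardiomyocyte genes to 28104 to 42480 CPM in heart and 35.4 to 474 in cortex. The libraries numbered 2 at P75 stood apart from the rest, with Ccdc36 at 407 to 968 CPM in 4 of 4, at 245 CPM in heart control 1 and at 10.0 CPM or below in the other 11 P75 libraries. Xist was at 109 to 515 CPM in all 6 P1 mutant libraries and in only 1 of 3 P1 controls of each tissue, so the sexes of the P1 groups were not balanced. RNA of 1 P1 heart control and of all 3 P1 heart mutants was extracted with RNeasy Plus Micro, per the first passage of the labels, and the other 24 libraries with TRIzol. For those 4 the labels also give TRIzol further on, so the values from the RNeasy libraries rest on the first passage. The 2 P1 heart controls extracted with TRIzol also held airway and cartilage RNA, and the values from the RNeasy libraries leave them out. Neither allele can be seen in 3′ tag counts: Sepsecs stood at 1.79 to 17.9 CPM and Gpx4 at 4.0 to 24.2 CPM over all libraries, and neither passed the test in any mutant comparison. In bulk tissue, fewer cells of a type and less RNA per cell cannot be told apart.

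In control tissue the 5 mRNAs had distinct profiles. Gpx3, the glutathione peroxidase that is secreted into plasma, was the most tissue-bound: it stood at 10.7 ± 6.2 CPM in P1 cortex and 417 ± 140 CPM in P1 heart (SD, n = 3). At P75 it was at 10.2 ± 4.2 CPM in cortex and 139 ± 43 CPM in heart (SD, n = 3). Gpx1, the cytosolic glutathione peroxidase, was the most abundant of the 5 in both P1 tissues, with 322 ± 42 CPM in cortex and 727 ± 180 CPM in heart, against 190 ± 48 and 177 ± 63 CPM at P75 (SD, n = 3). Selenow went the other way between tissues, at 146 ± 17 CPM in P1 cortex, 65.0 ± 25.4 in P1 heart, 293 ± 105 in P75 cortex and 51.3 ± 11.7 in P75 heart (SD, n = 3). Selenoh, a nucleolar DNA-binding protein, was a gene of the newborn: it stood at 68.0 ± 6.1 and 64.4 ± 14.7 CPM in P1 cortex and heart and at 20.1 ± 3.3 and 17.1 ± 1.1 CPM at P75 (SD, n = 3). Msrb1, which reduces oxidised methionine in proteins, was at 29.4 ± 1.1 CPM in P1 cortex, 51.8 ± 6.4 in P1 heart, 27.9 ± 8.6 in P75 cortex and 96.0 ± 12.9 in P75 heart (SD, n = 3).

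**Figure D1:**
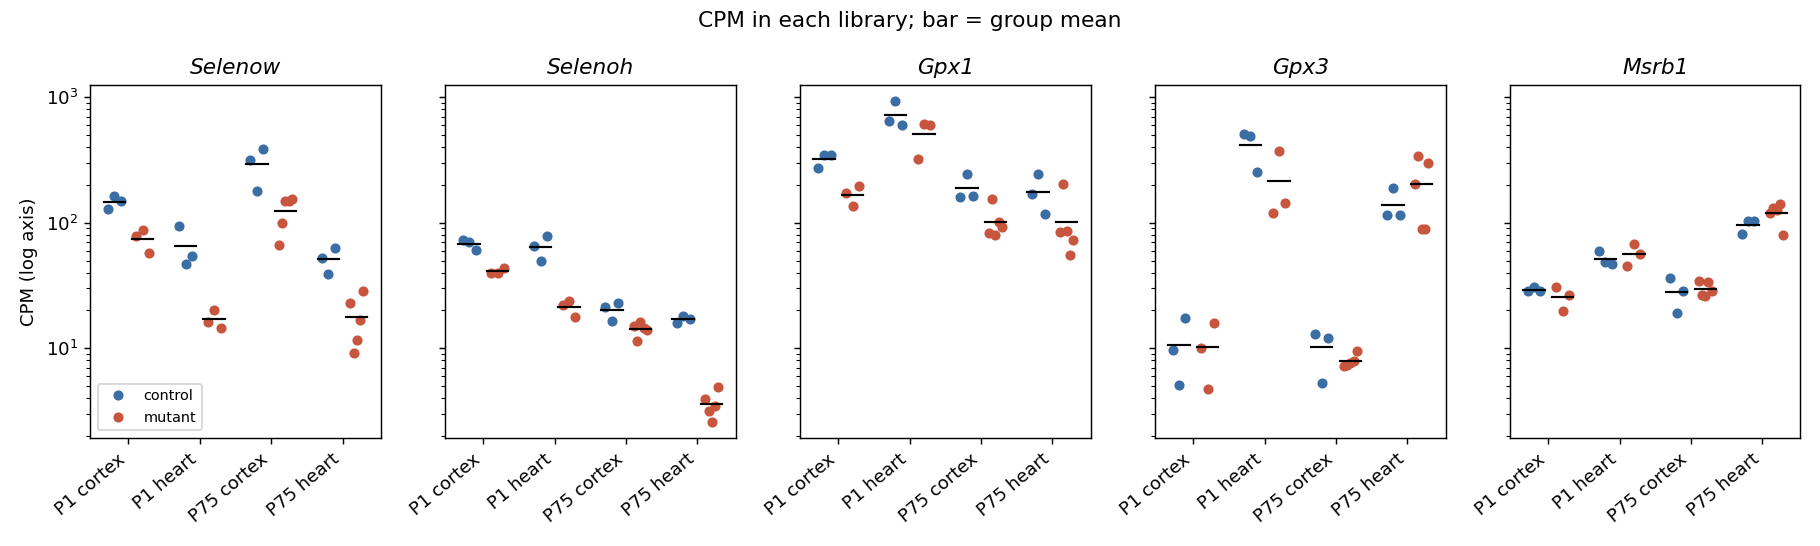
CPM of the 5 mRNAs in each of the 28 libraries (log axis), by tissue and age, controls in blue and mutants in red, with bars at the group means. Selenow and Selenoh mutants lie below every control in all 4 pairs of groups, and Msrb1 points of the 2 genotypes overlap in all 4.

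Tissue differences in the controls were tested with edgeR's quasi-likelihood test, with p-values adjusted by Benjamini-Hochberg over all genes and called under 0.05. At P1, heart against cortex, 58.4% of 14020 genes were called, and 4 of the 5 members were. Gpx3 was higher in heart by 5.70 ± 0.45 on the log2 scale (SE, edgeR adjusted p = 1.29e-06), Gpx1 by 1.61 ± 0.24 (0.000176) and Msrb1 by 1.23 ± 0.21 (0.000476), and Selenow was lower in heart, at −0.78 ± 0.24 (0.018). That Selenow call was kept in 3 of 6 fits without 1 library, where the edgeR adjusted p reached 0.0691, and in 6 of 7 alternatives. At P75, 52% of 13308 genes were called and 3 members were: Gpx3 at 4.64 ± 0.45 (edgeR adjusted p = 2.49e-05), Msrb1 at 2.68 ± 0.35 (0.000161) and Selenow at −1.57 ± 0.43 (0.0112). The tissue difference of Selenoh was not called at P1, with 0.33 ± 0.23 (0.243), or at P75, with 0.69 ± 0.33 (0.111, both edgeR), and that of Gpx1 was not called at P75, with 0.82 ± 0.39 (0.106).

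Between the ages, 40.1% of 13801 genes were called in control cortex and 16.7% of 12563 in control heart. Selenoh fell with age in both tissues, by 1.66 ± 0.23 on the log2 scale in cortex (SE, edgeR adjusted p = 0.000434) and by 1.23 ± 0.34 in heart (0.031). Gpx1 fell as well, by 0.66 ± 0.23 in cortex (edgeR adjusted p = 0.0475) and by 1.37 ± 0.42 in heart (0.0454). Without 1 library each, both Gpx1 calls were kept in 1 of 6 fits, with edgeR adjusted p up to 0.159 in cortex and 0.18 in heart, and that of Selenoh in heart in 1 of 6, up to 0.14. Selenow rose in cortex by 1.10 ± 0.28 (edgeR adjusted p = 0.011) and was not called in heart, at 0.38 ± 0.39 (0.544). Msrb1 did the reverse, with a rise of 1.55 ± 0.32 in heart (edgeR adjusted p = 0.00786) and 0.03 ± 0.26 in cortex (0.937). Gpx3 was called in neither tissue, with 0.06 ± 0.46 in cortex (0.925) and −0.94 ± 0.39 in heart (edgeR adjusted p = 0.122). Without the P75 control numbered 2, the heart values were 1.68 for Msrb1 (edgeR adjusted p = 0.0138), −1.09 for Selenoh (0.0956) and −1.41 for Gpx1 (0.0894), so that 1 of the 3 heart calls was left.

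Ranked by level, the P1 cortex order was Gpx1, Selenow, Selenoh, Msrb1 and Gpx3 in both genotypes, and in neither genotype did the ranges of neighbours overlap. The P75 cortex order was Selenow, Gpx1, Msrb1, Selenoh and Gpx3 in both genotypes. There the ranges of Selenow and Gpx1 overlapped in both, and those of Msrb1 and Selenoh in the controls. Heart orders differed between genotypes. In P1 heart, controls ran Gpx1, Gpx3, Selenow, Selenoh and Msrb1, and mutants ran Gpx1, Gpx3, Msrb1, Selenoh and Selenow. Selenow overlapped Selenoh in both genotypes, Selenoh overlapped Msrb1 in the controls, and Gpx1 overlapped Gpx3 in the mutants. In P75 heart the control order was Gpx1, Gpx3, Msrb1, Selenow and Selenoh, and the mutant order Gpx3, Msrb1, Gpx1, Selenow and Selenoh. Gpx1 and Gpx3 overlapped in those controls, and Gpx3, Msrb1 and Gpx1 in those mutants. In both hearts Msrb1 thus stood higher in the mutant order than in the control order.

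Selenow, a small selenoprotein abundant in muscle and brain, was lower in every mutant than in every control in all 4 tissue and age pairs. In P1 cortex it was at 129, 162 and 148 CPM in the controls and 78.3, 87.0 and 57.3 CPM in the mutants, 50.7% of the control mean. In P1 heart the controls stood at 94.1, 47.1 and 53.9 CPM and the mutants at 16.3, 20.1 and 14.6, or 26.1%. In P75 cortex the values were 318, 178 and 384 CPM against 66.9, 99.2, 148, 150 and 154, or 42.1%. In P75 heart they were 52.0, 39.3 and 62.5 CPM against 22.9, 9.14, 11.6, 16.8 and 28.4, or 34.6%. The groups did not overlap in any of the 4 pairs, although the controls themselves spread more than 2-fold in P75 cortex. Every mutant lay below every control for 3.21% of the genes tested in P1 cortex, 2.82% in P1 heart, 1.34% in P75 cortex and 1.39% in P75 heart, the background for such separations.

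Gene by gene over the whole table, Selenow did not pass the edgeR test within a single pair of groups. In P1 cortex its log2 fold change was −0.998 ± 0.172 (SE, edgeR adjusted p = 1.00), rank 2 of 13694 genes by p-value. No gene was called there (0%), although 287 had an unadjusted p under 0.05. In P1 heart it was −1.91 ± 0.29 (edgeR adjusted p = 0.589), rank 1 of 12876, where again 0% were called and 326 had an unadjusted p under 0.05. In P75 cortex it was −1.27 ± 0.30 (0.516) with 0% of 13291 called and 726 at an unadjusted p under 0.05. DESeq2 called more genes from the same counts, 3 in P1 cortex (0.0219%), 10 in P1 heart (0.0777%) and 53 in P75 cortex (0.399%), and limma-voom 0 in each. Selenow was among the DESeq2 calls in all 3, with adjusted p-values of 0.00292, 1.57e-05 and 0.0319. Over the alternatives run, the adjusted p of Selenow ranged from 5.47e-05 to 1.0 in P1 cortex, from 2.24e-06 to 1.0 in P1 heart and from 0.0319 to 0.623 in P75 cortex.

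In P75 cortex, libraries with the same number deviated together, and with the number as a block the fold change of Selenow was −1.50 with an edgeR adjusted p of 0.0338, where 48 genes (0.361%) were called. Without the number 2 libraries it was −1.48 (edgeR adjusted p = 0.0774). Glial markers also differed between these cortex groups: 5 astrocyte markers summed to 1963 to 2312 CPM in the controls and 2435 to 3186 in the mutants, with Gfap at 21.3 to 37.8 against 79.4 to 389 CPM. The sum of 5 microglia and macrophage markers was 253 to 333 CPM in controls and 283 to 949 in mutants. No marker of either list was at 0, and the part of this shift in the Selenow, Selenoh and Gpx1 values of P75 cortex was not tested. In P75 heart Selenow was at −1.81 ± 0.36 (SE, edgeR adjusted p = 0.171), rank 30 of 12264 genes, with 2 genes called (0.0163%), 960 at an unadjusted p under 0.05 and 96 called by DESeq2 (0.783%). Its DESeq2 adjusted p there was 0.00208, and its range over the alternatives 0.00208 to 0.645. With Xist as a covariate the P1 values of Selenow were −0.90 in cortex and −1.60 in heart. From the RNeasy libraries alone, which leave 1 P1 heart control, its fold change was −1.69.

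Selenoh was also lower in every mutant than in every control in all 4 pairs, and it gave the one member call within a pair. In P75 heart its CPM were 16.0, 18.2 and 17.3 in the controls and 3.96, 3.18, 2.60, 3.49 and 4.90 in the mutants, resting on 86 to 117 counts in a control and 16 to 43 in a mutant. The mutant mean was 21.2% of the control mean, and the highest mutant lay far below the lowest control. Its log2 fold change of −2.47 ± 0.28 had the lowest p-value of 12264 genes (SE, edgeR adjusted p = 0.0208), and the other gene called was Gsta2, a glutathione S-transferase, at 5.59 ± 0.64. The fold change lay between −2.59 and −2.24 when any 1 library was dropped, but the call was kept in 1 of those 8 fits, the one without mutant 2, and the adjusted p reached 0.169. With all 28 libraries scaled together, heart control 1 had a TMM normalisation factor of 0.454 against 0.671 to 0.826 in the other P75 hearts. The P75 heart fit set its own factors from its 8 libraries. Scaling by library totals alone moved the median of all genes in that fit from 0.0102 to 0.163 and gave Selenoh −2.23.

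In P1 heart Selenoh stood at 64.7, 49.5 and 78.9 CPM in the controls and 22.0, 23.8 and 17.8 CPM in the mutants, 32.9% of the control mean. That fold change, −1.60 ± 0.26 (SE, edgeR adjusted p = 0.589), ranked 2 by p-value, after Selenow, and DESeq2 gave it an adjusted p of 0.000202 (range over alternatives 0.000202 to 1.0). In cortex the mutant means were nearer to the control means. At P1 the controls had 72.9, 70.0 and 61.1 CPM and the mutants 39.9, 39.6 and 43.7, 60.4% of the control mean, with a log2 fold change of −0.75 ± 0.15 (edgeR adjusted p = 1.00), rank 4 of 13694 by p-value. At P75 the controls had 21.2, 16.3 and 22.7 CPM and the mutants 15.0, 11.5, 16.1, 14.4 and 13.9, or 70.7%, with −0.53 ± 0.18 (edgeR adjusted p = 0.743). The highest P75 cortex mutant, at 16.1, lay just under the lowest control, at 16.3. With the RNeasy libraries alone the P1 heart value was −1.92, and with Xist as a covariate it was −1.31.

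Gpx1, the first selenoenzyme described in mammals and a classic gauge of selenium status, had CPM that did not overlap between genotypes in cortex and did in heart. A tissue difference of its mutant effect was not called by edgeR. Heart minus cortex was 0.47 ± 0.38 at P1 and −0.07 ± 0.58 at P75 (SE). In P1 cortex it stood at 273, 347 and 344 CPM in the controls and 171, 135 and 197 CPM in the mutants, 52.1% of the control mean. In P75 cortex the controls were at 162, 246 and 163 CPM and the mutants at 82.2, 153, 79.6, 101 and 91.9, or 53.4%. No mutant overlapped a control in either cortex. The P1 cortex fold change was −0.95 ± 0.17 (SE, edgeR adjusted p = 1.00), rank 3 by p-value, and DESeq2 called it (adjusted p = 0.00413, range over alternatives 6.77e-05 to 1.0). The P75 cortex fold change was −0.93 ± 0.27 (edgeR adjusted p = 0.659), and with the replicate number as a block it was −0.91 and passed (edgeR adjusted p = 0.0342, range over alternatives 0.0342 to 0.853).

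In P1 heart Gpx1 stood at 646, 933 and 601 CPM in the controls and 324, 611 and 599 CPM in the mutants, so that 2 mutants were below all controls and 1 was inside their range. Its fold change was −0.51 ± 0.30 (SE, edgeR adjusted p = 1.00), and −0.25 from the RNeasy libraries alone. In P75 heart it stood at 169, 244 and 118 CPM against 84.1, 205, 85.9, 54.9 and 72.4, and 4 of 5 mutants were below all controls. The fold change there was −0.995 ± 0.469 (edgeR adjusted p = 0.648), and −1.45 without the number 2 libraries (0.18). Gpx1 was highest in the number 2 library of each of the 4 P75 groups. Red cells hold much Gpx1 mRNA, and 6 erythroid markers, none at 0 in any heart, summed in P75 heart to 6026, 24307 and 3766 CPM in the controls and 3550, 16595, 11813, 3296 and 3298 CPM in the mutants. The number 2 libraries were thus also the highest in erythroid markers in both P75 heart groups. In P75 cortex they were the lowest, at 343 CPM against 495 and 598 in the other controls and 496 CPM against 514 to 909 in the other mutants. In P1 heart the same sum was 18533, 69522 and 21755 CPM in controls, with the highest in the control that was also highest in Gpx1, and 53257, 49472 and 58965 CPM in mutants. The part of erythroid RNA in the Gpx1 values was not tested.

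Gpx3 overlapped between the genotypes in all 4 pairs. It was low in cortex, at 9.67, 5.07 and 17.3 CPM in P1 controls and 9.98, 4.70 and 15.8 CPM in P1 mutants, where it rests on 28 to 110 counts a library. In P75 cortex it stood at 13.1, 5.34 and 12.1 CPM against 7.20, 7.31, 7.66, 7.88 and 9.55, with all 5 mutants inside the range of the controls. The cortex fold changes were −0.08 ± 0.50 at P1 (SE, edgeR adjusted p = 1.00) and −0.41 ± 0.28 at P75 (0.999). In P1 heart, where Gpx3 was abundant, the controls had 508, 487 and 256 CPM and the mutants 120, 376 and 145, 51.2% of the control mean. The fold change was −0.97 ± 0.41 (edgeR adjusted p = 1.00), and −0.29 from the RNeasy libraries alone, since the RNeasy control was the lowest of the 3. The 2 controls left out there, which were the high ones in Gpx3, also held airway and cartilage RNA. Their 6 airway and lung markers summed to 3144 and 879 CPM, against 0 in control 3 and 4.97, 428 and 5.48 in the mutants, with mutant 2 also the highest mutant in Gpx3. Their 4 cartilage markers summed to 81.1 and 149 CPM against 6.87 in control 3 and 5.38 to 12.8 in the mutants. The part of such RNA in the Gpx3 values was not tested. In P75 heart the mutant mean was higher, at 147% of the control mean, with 114, 188 and 115 CPM against 203, 343, 89.5, 89.0 and 299. The fold change was 0.38 ± 0.48 (edgeR adjusted p = 0.843), and −0.09 by limma-voom with sample weights.

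**Figure D2:**
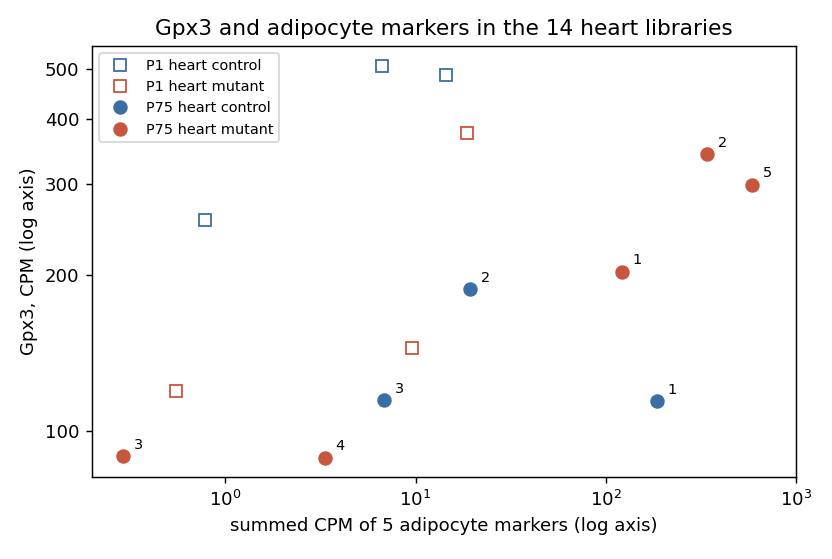
Gpx3 in CPM (vertical log axis) against the summed CPM of 5 adipocyte markers (horizontal log axis) in the 14 heart libraries, open squares for P1 and filled circles for P75, controls in blue and mutants in red, with replicate numbers at P75. The 3 P75 mutants with the highest Gpx3 have adipocyte sums of 121, 342 and 590 CPM, and the 2 lowest have 0.289 and 3.33.

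Among the P75 heart mutants Gpx3 was highest in the libraries with the most adipocyte RNA, as the plot of Gpx3 against adipocyte markers shows. Adipocytes also make Gpx3. Adipoq, the adiponectin gene, was at 29.2, 69.2, 0, 1.66 and 83.8 CPM in mutants 1 to 5, and the 5 markers summed to 121, 342, 0.289, 3.33 and 590 CPM. In the P75 heart controls the sum was 185, 19.4 and 6.83 CPM, so control 1 had many adipocyte transcripts with Gpx3 at 114 CPM. Lep, the leptin gene, was at 0 in all 8 P75 hearts but mutant 5. In P1 hearts the sum stayed between 0.553 and 18.6 CPM. Airway RNA also differed between the P75 hearts: the 6 airway and lung markers summed to 0.211 to 1.51 CPM in controls and 2.92 to 735 CPM in mutants. Scgb3a2, an airway gene among them, was at 161 CPM in mutant 2 and at 2.51 CPM or below in the other mutants. Mutant 2 was the highest P75 heart mutant in both Gpx3 and Gpx1. The parts of adipocyte and airway RNA in these values were not tested.

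Msrb1 overlapped between the genotypes in all 4 pairs, and its fold changes were the smallest in size of the 5 genes in every pair but P1 cortex, where that of Gpx3 was smaller. In P1 cortex it was at 28.7, 30.6 and 28.8 CPM in the controls and 30.8, 19.8 and 26.5 CPM in the mutants. In P1 heart the values were 59.1, 49.0 and 47.3 CPM against 45.6, 67.2 and 56.2. In P75 cortex they were 36.2, 19.0 and 28.7 CPM against 34.1, 26.7, 26.1, 33.6 and 28.7. These 3 pairs had mutant means of 87.5%, 109% and 107% of the control means. In P75 heart 4 of 5 mutants were above all controls, with 81.2, 103 and 104 CPM against 118, 131, 126, 140 and 79.7, or 124%, and the fold change after TMM scaling was 0.13 ± 0.29 (SE, edgeR adjusted p = 0.91). The other 3 fold changes were −0.21 ± 0.20, 0.13 ± 0.23 and 0.06 ± 0.21 (edgeR adjusted p of 0.999 to 1.00).

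Averaged over the 4 tissue and age pairs in 1 fit of all 28 libraries, 15 of 16208 genes were called (0.0925%), with 1177 at an unadjusted p under 0.05, and 2 of the 5 members were among them. Selenoh fell by 1.34 ± 0.11 on the log2 scale and ranked 1 by p-value (SE, edgeR adjusted p = 2.84e-08). Selenow fell by 1.50 ± 0.17 and ranked 2 (edgeR adjusted p = 1.58e-05). Both kept their calls in 28 of 28 fits that left out 1 library. Gpx1 had a mean effect of −0.85 ± 0.19 (edgeR adjusted p = 0.0983), rank 19 by p-value, and passed without the P75 number 2 libraries, at −0.95 (0.00286). Gpx3 was at −0.27 ± 0.24 (edgeR adjusted p = 0.872). Msrb1 was at 0.03 ± 0.12 (edgeR adjusted p = 1.00), with a 95% confidence interval from −0.22 to 0.28. The median of all genes was 0.00. Cortex and heart libraries may come from the same mice, which the labels do not say; the adjusted p-values would then be too small. With the number as a random effect shared by the tissues of an age and genotype, limma-voom gave −1.49 for Selenow (adjusted p = 5.4e-05), −1.32 for Selenoh (2.11e-07) and −0.89 for Gpx1 (0.0623). In P1 controls 1 and 2, however, the number cannot mark the same mouse in both tissues. Xist was at 475 CPM in cortex and 0.710 in heart for control 1. For control 2 it was at 1.18 CPM in cortex and 291 in heart. The random effect joined different mice there, so this fit cannot settle what shared mice would do to the adjusted p-values.

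**Figure D3:**
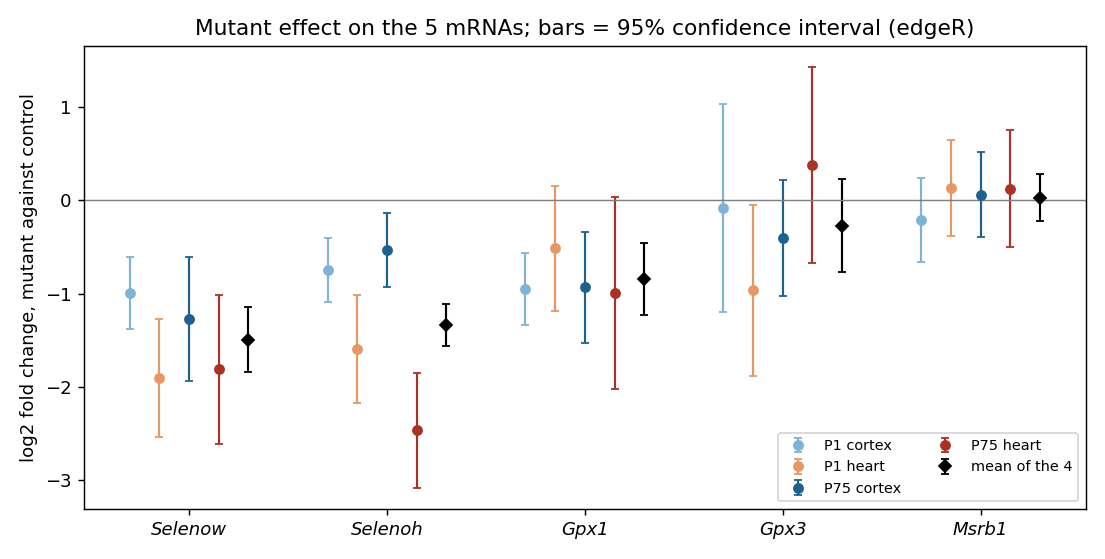
Log2 fold change, mutant against control, of the 5 mRNAs in each tissue and age and as the mean of the 4 (black), with 95% confidence intervals from edgeR. Selenow and Selenoh intervals lie below 0 in all 4 pairs, those of Gpx1 in the 2 cortex pairs, and those of Msrb1 span 0 in all 4.

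The size of the mutant effect was compared between tissues and ages with interaction terms, of which edgeR called 0% for heart against cortex at P1 (15157 genes), 0% for heart against cortex at P75 (14814), 0% for P75 against P1 in cortex (14806) and 0% for P75 against P1 in heart (13714). An unadjusted p under 0.05 was reached by 371, 945, 521 and 529 genes in that order, DESeq2 called 0, 58, 1 and 6, and limma-voom 0, 2, 0 and 0. The lowest p-value of a member was that of Selenoh: at P75 the heart minus cortex difference of its mutant effect was −1.94 ± 0.34 (SE), rank 3 of 14814 genes by p-value, with an edgeR adjusted p of 0.111 and a DESeq2 adjusted p of 0.00019, where DESeq2 called 0.392% of genes. Over the alternatives this difference had adjusted p-values from 0.00019 to 0.182. At P1 the heart minus cortex differences were −0.83 ± 0.30 for Selenoh and −0.88 ± 0.33 for Selenow, each with an edgeR adjusted p of 1.00. Between ages the largest in size were Gpx3 in heart, 1.33 ± 0.72, and Selenoh in heart, −0.88 ± 0.38 (edgeR adjusted p of 0.99 for both). Gpx1 differed least between ages in cortex, by 0.01 ± 0.36.

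Ratios between 2 members within a library need no scaling of libraries. The share of other gene pairs whose ratios separate the genotypes was not computed, so the separations below have no background. Against Msrb1, Selenow stood at 4.50, 5.31 and 5.13 in P1 cortex controls and 2.54, 4.40 and 2.16 in mutants, and at 1.59, 0.961 and 1.14 against 0.358, 0.298 and 0.260 in P1 heart. In newborn heart Selenow counts were thus close to or above Msrb1 counts in the controls and well below them in every mutant. In P75 cortex its ratio was 8.79, 9.39 and 13.4 against 1.96, 3.72, 5.68, 4.46 and 5.39. The Selenoh to Msrb1 ratio showed the same separation in heart, with 1.10, 1.01 and 1.67 against 0.482, 0.354 and 0.317 at P1. At P75 it was 0.197, 0.176 and 0.166 in controls and 0.033, 0.024, 0.021, 0.025 and 0.061 in mutants. In P1 cortex it did not overlap, with 2.54, 2.29 and 2.12 against 1.30, 2.00 and 1.65. In P75 cortex it did overlap, with 0.586, 0.860 and 0.794 against 0.441, 0.432, 0.619, 0.430 and 0.484. For the Gpx1 to Msrb1 ratio the overlaps fell in other pairs than for its CPM, and no age or tissue difference of the ratio was tested. The ratio did not overlap in P1 cortex or in P1 heart, with 10.9, 19.1 and 12.7 against 7.10, 9.09 and 10.7 in P1 heart. There the highest mutant lay just under the lowest control. It overlapped in P75 cortex, with 4.47, 12.9 and 5.69 against 2.41, 5.74, 3.05, 3.00 and 3.21. It also overlapped in P75 heart, with 2.08, 2.37 and 1.14 against 0.710, 1.57, 0.684, 0.391 and 0.909. In each P75 tissue mutant 2 alone lay above the lowest control ratio.

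**Figure D4:**
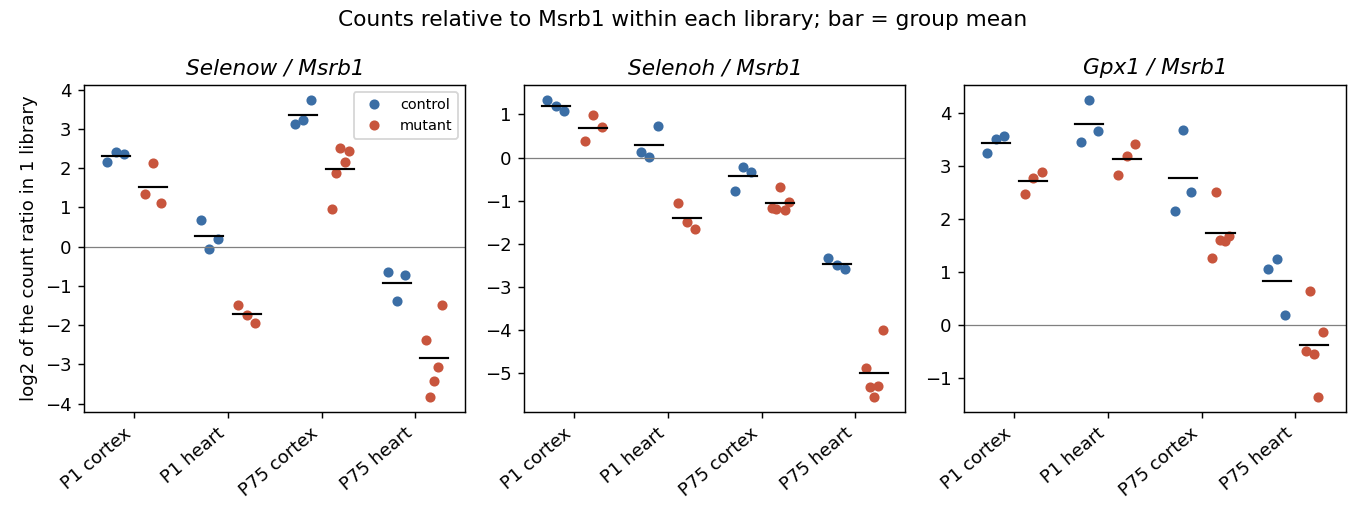
Log2 of the ratio of Selenow, Selenoh and Gpx1 counts to Msrb1 counts within each library, by tissue and age, controls in blue and mutants in red, with bars at the group means. Mutant ratios of Selenow lie below every control ratio in all 4 pairs of groups. Those of Selenoh overlap the controls in P75 cortex, and those of Gpx1 in P75 cortex and P75 heart.

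All 10 pairs of members were tested in the 4 comparisons with exact two-sided permutation tests, 40 in all. With 3 against 3 libraries the smallest possible p is 0.1 and with 3 against 5 it is 0.0357, and with every test at its smallest p the Benjamini-Hochberg adjusted p over the 40 would be 0.0714, so none of them could pass. The lowest adjusted p of the exact tests was 0.179. Ratios of Selenow to Msrb1 reached the smallest possible p in all 4 pairs, with log2 differences of −0.78, −1.99, −1.38 and −1.91. Between Selenow and Selenoh no comparison separated the genotypes. In P75 heart the log2 ratio of Selenoh to Gpx1 differed by −1.33 between mutants and controls (exact permutation p = 0.0357, adjusted 0.179).

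None of the other 19 selenoprotein genes was called in a mutant comparison by the main edgeR fit. Among those named below, alternatives called Txnrd1 in P75 heart in 2 of 11, Selenop in P75 cortex in 1 of 11 and Selenom in the mean in 1 of 10. Sephs2 was called in the mean in 1 of 28 fits without 1 library. In the fit over the 4 pairs 16 were tested, 9 higher and 7 lower, with Dio3, whose SE of 2031 leaves it no direction, among the 9, and 0 called by edgeR and 4 at an unadjusted p under 0.05, and a median of 0.13 beside 0.00 for all genes. Within the pairs, the numbers higher and lower were 11 and 5 in P1 cortex, 6 and 9 in P1 heart, 9 and 7 in P75 cortex and 9 and 6 in P75 heart. Selenom, a thioredoxin-like protein of the endoplasmic reticulum, came nearest to the members, with −0.73 in P1 heart, −1.45 in P75 heart and a mean of −0.60 (edgeR adjusted p = 0.451). Sephs2, which makes the selenium donor for selenocysteine and is a selenoprotein itself, was at 0.59 in P1 cortex, 0.57 in P1 heart and 0.55 in P75 cortex, with a mean of 0.46 (edgeR adjusted p = 0.451). Txnrd1, cytosolic thioredoxin reductase, was at −0.55 in P1 cortex and 1.28 in P75 heart (edgeR adjusted p = 0.202). Selenop, the selenium carrier of plasma, was at 0.70 in P75 cortex (0.495), and Gpx4, which reduces lipid peroxides, had a mean of 0.10 (edgeR adjusted p = 0.972).

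Set by the place of the selenocysteine codon, all 5 members were among the 12 of 20 selenoprotein genes with an exon junction downstream. The 20 are the tested genes without Dio3, left out for its SE. The mean effects of those 12, from the shortest to the longest distance, were −0.07 for Selenok, 0.03 for Msrb1, −0.06 for Selenof, −0.85 for Gpx1, −0.60 for Selenom, −1.34 for Selenoh, −0.25 for Selenon, −0.27 for Gpx3, −1.50 for Selenow, 0.10 for Gpx4, 0.15 for Selenop and −0.04 for Selenot. The 5 lowest of all 20 were thus Selenow, Selenoh, Gpx1, Selenom and Gpx3, all with a junction downstream, at distances of 105 to 243 bases. The cut after Gpx3, at −0.27 ± 0.24, is arbitrary, since Selenon came next at −0.25 ± 0.19 (SE, edgeR). Where a gene had more than 1 such codon, the distance is that of the first. Gpx4, Selenop and Selenot, with longer distances of 342 to 470 bases, had mean effects near 0. The Gpx4 mean includes the P75 mutants, which carry Gpx4 U/C, and in P75 cortex Gpx4 was at 0.67 ± 0.43 (SE, edgeR, not called). What that allele does to the Gpx4 value was not tested. For the 8 of these 20 with the codon in the last or only exon, mean effects ran from −0.20 for Dio2 to 0.48 for Txnrd2. The 20 values share the same 28 libraries, and no test was made of this order.

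**Figure D5:**
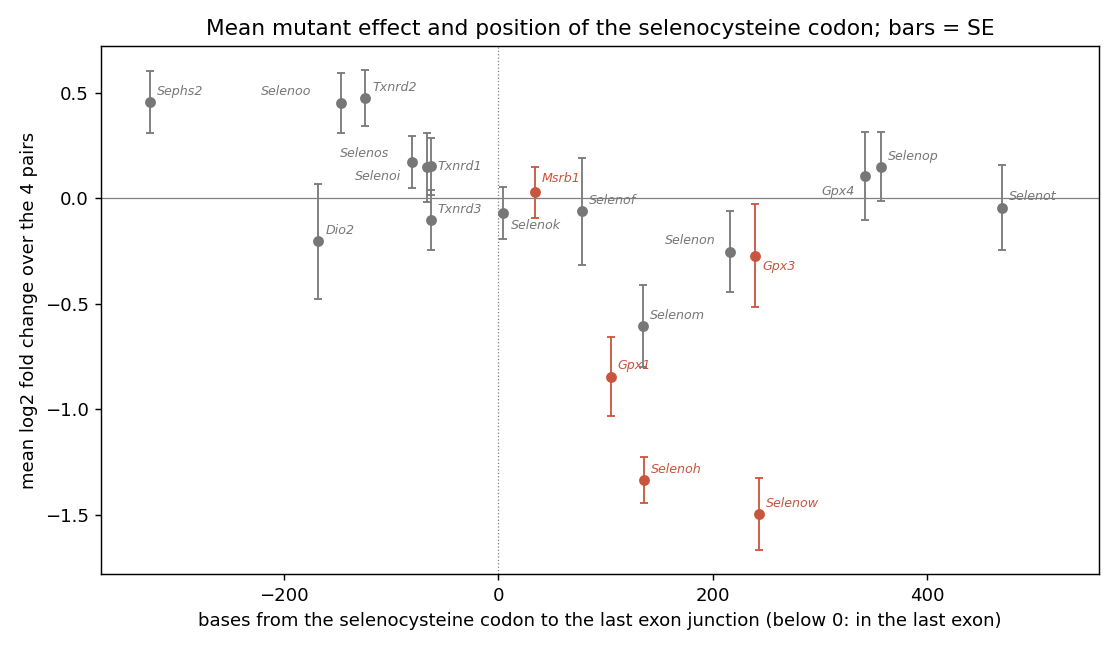
Mean log2 fold change over the 4 tissue and age pairs, with SE bars from edgeR, against the distance in bases from the selenocysteine codon to the last exon junction for 20 selenoprotein genes, the 5 members in red. Values below 0 on the horizontal axis mark codons in the last exon (in single-exon Sephs2, the distance from the transcript start). The 3 lowest points are Selenow, Selenoh and Gpx1, and Msrb1 lies near 0 at 34 bases.

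Among genes around the members, calls of the main edgeR fit came from 1 list. Of 9 relatives without selenocysteine, such as cysteine-type glutathione peroxidases and methionine sulfoxide reductases, 7 were tested over the 4 pairs, 3 higher and 4 lower, with 0 called by edgeR and 0 at an unadjusted p under 0.05. Mien1, a relative of Selenow, was at −0.36 (edgeR adjusted p = 0.692). Of 15 genes of the selenocysteine machinery 11 were higher and 4 lower, and of 13 NMD factors 5 were higher and 8 lower, with 0 called in both lists by edgeR and 1 and 0 at an unadjusted p under 0.05. In the glutathione and thioredoxin list 19 of 23 were higher and 4 lower, and 2 were called: Nqo1, a quinone reductase, rose by 1.01 ± 0.15 (SE, edgeR adjusted p = 0.00199) and Gclm, a subunit of the enzyme that starts glutathione synthesis, by 0.87 ± 0.14 (0.00325). In P75 heart, where Selenoh was lowest, Gclm was at 2.54 and Nqo1 at 2.57 (edgeR adjusted p = 0.0612 for both).

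Likeness across libraries was measured as Pearson's r of TMM-scaled log2 CPM over the 28 libraries, after the mean of each tissue and age was taken out, for 10479 genes. It includes the genotype difference, and it is a description without a test. Selenow and Selenoh were each other's nearest gene, at r = 0.86. The next nearest was Apln, the apelin gene, at 0.83 for both, followed by Tbx18 at 0.71 for Selenow and Tpm3 at 0.80 for Selenoh. Gpx1 was only moderately like them, at 0.56 with Selenoh and 0.46 with Selenow, and its nearest genes were Mylk (0.83), Fam210b (0.79) and Tmem14c (0.78). Gpx3 was nearest to Aldh1a1 (0.69), Cep170b (0.67) and Khk (0.67), and Msrb1 to Napa (0.78), Ndufa9 (0.77) and Uqcrq (0.75). Msrb1 was at −0.09 with Selenow and −0.06 with Selenoh.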

How the data were processed

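The authors deposited raw counts per Ensembl gene for each library. Per the submitters' processing notes the reads were aligned with STAR to GRCm38; for the aligner version, counter, strand setting and gene annotation none is given in the sources used here. Counts came from QuantSeq 3′ libraries, per the labels' protocols. Groups follow the labels and the series' design text, in which n counts mice. Of the 55416 identifiers, 52083 had a symbol in GENCODE M21. No other transcript shared 50 or more bases at 95% identity with the last 400 bases of a member.

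Members and lists were chosen with earlier results of these data known. Tests used edgeR 4.0.16 (filterByExpr, TMM, glmQLFTest) in R 4.3.3 over all genes, with Benjamini-Hochberg adjustment and a threshold of 0.05. Alternatives used DESeq2 1.42.0, limma 3.58.1 (voom with sample weights), no filter, a fit of all 8 groups, a replicate block, Xist as a covariate and left-out libraries. Ratio tests added 0.5 counts and used scipy 1.17.1. CPM were divided by library totals. The likeness measure used a prior count of 2 and the genes tested in all 4 mutant comparisons. A mean count of 10 or more was an alternative filter for the tests. The edgeR fit was tested on simulated counts. One listed erythroid gene had no row. Named genes were the 5 members, Sepsecs, Gpx4, up to 4 genes with the lowest p from each list in a comparison, all called list genes, and the 3 genes most like each member; Gsta2 was named after its values were seen.

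Replicate numbers paired the P75 cortex libraries by the rule that every same-numbered correlation of deviations exceed 0.1 (0.343, 0.722 and 0.349 over 10479 genes); the labels do not say what the numbers mark. No other pair of groups met it. The choice of 0.1 mattered. In P1 cortex the values were 0.078, 0.297 and 0.358, and each control was closest to the mutant of its own number. P75 cortex control 3 was closer to a mutant of another number (0.421). With the number as a block, edgeR called 0 genes in P1 cortex.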

Additional observations from a re-analysis of the deposited data

Results flagged for a closer look

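In the groups of 5 mice, 3 of 14 tests of a gene in a group found 1 library farther from the others than the 95% limit of Dixon's test, where chance gives about 1 in 20. The 14 tests took in Sepsecs and Gpx4 beside the members. In P75 cortex the flags only just passed: the gap took 0.712 of the range for Gpx1 and 0.711 for Gpx3, against a limit of 0.71. Gpx1 was at 153 CPM in P75 cortex mutant 2, with the other 4 mutants between 79.6 and 101 CPM. Gpx1 was at 205 CPM in P75 heart mutant 2, with the other 4 between 54.9 and 85.9 CPM. Gpx3 was at 9.55 CPM in P75 cortex mutant 5, with the other 4 between 7.20 and 7.88 CPM. Both Gpx1 values belong to the number 2 libraries, in which Ccdc36 was at 781 and 505 CPM.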

How the results depend on the processing

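Over the alternatives the numbers of genes called moved more than the members' fold changes. In P1 cortex (0 genes, edgeR) no filter gave 52 calls, DESeq2 3 and Xist as a covariate 9, with 2 members called without a filter and 2 by DESeq2. In P1 heart (0) no filter gave 118, DESeq2 10, the fit of all 8 groups 3, the replicate block 2 and the RNeasy libraries alone 4 (1 control, assumed to vary like the mutants), with 2, 2 and 1 members under the first 3. In P75 cortex (0) no filter gave 11, DESeq2 53, all 8 groups 9, the block 48 and leaving out the number 2 libraries 3, with 1 member by DESeq2 and 2 under the block. In P75 heart (2, 1 of them Selenoh) no filter gave 72, DESeq2 96, limma-voom 17, all 8 groups 157, the block 0, library totals 15 and leaving out the number 2 libraries 4, with 2, 2 and 2 members without a filter, by DESeq2 and with all 8 groups and 0 under the block, where Selenoh was at −2.56 (edgeR adjusted p = 0.638). The numbers did not pair these P75 hearts or the P1 libraries. For the mutant effect in heart against cortex (0 at both ages), no filter gave 42 at P1 and 14 at P75, and at P75 DESeq2 gave 58, limma-voom 2 and all 8 groups 7, with 1 member by DESeq2 and 1 with all 8 groups. For the effect at P75 against P1 (0 in both tissues), no filter gave 10 in cortex and 158 in heart, DESeq2 1 and 6 and the replicate block 5 and 3. For heart controls by age (2101) no filter gave 3159 and all 8 groups 4410, and leaving out the number 2 libraries left 1 of 3 members. For the mean effect (15) no filter gave 193, DESeq2 53, limma-voom 33, leaving out the number 2 libraries 23, the replicate block within each tissue and age 37 and the block across tissues as a random effect 10. Selenow and Selenoh passed there in 10 of 10 alternatives. Gpx1 passed in 5 of 10, the replicate block among them (−0.78, edgeR adjusted p = 0.0383), and in 3 of 28 fits without 1 library, at an adjusted p of 0.00919 by DESeq2 and 0.000492 by limma-voom, with a range of 2.98e-05 to 0.199. The cause of these shifts was not tested.

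Without 1 library each, calls ranged from 0 to 5 in P1 cortex, 0 to 14 in P1 heart, 0 to 2 in P75 cortex, 0 to 10 in P75 heart (members 0 to 1), 0 to 2 and 0 to 1 for heart against cortex at P1 and P75, 0 to 1 for the heart effect by age, 3900 to 6972 for cortex controls by age (members 2 to 3), 1105 to 2152 for heart controls by age (members 0 to 3) and 7 to 32 for the mean effect (members 2 to 3).

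Signs changed for uncalled values only. Gpx3 was at 0.23 (limma-voom) and 0.12 (Xist) in P1 cortex and −0.086 (limma-voom) in P75 heart. Msrb1 was at −0.11 (limma-voom) and −0.12 (without number 2) in P75 cortex, −0.0548 (without number 2) in P75 heart, −0.0086 for heart against cortex at P75 (replicate block), 0.0174 (no filter), 0.062 (limma-voom) and 0.13 (replicate block) for the heart effect by age, −0.0068 (no filter) in cortex controls by age, and −0.0095 (limma-voom) and −0.0551 (without number 2) in the mean. Selenow was at −0.0415 (without number 2) and −0.17 (replicate block) for the heart effect by age. Sepsecs was at −0.16 (Xist) in P1 heart and 0.007 (without number 2) in P75 heart. Gpx4 was at 0.14 (Xist) in P1 heart and, in P75 heart, 0.62 (limma-voom), 0.0479 (block), 0.13 (Xist) and 0.29 (library totals). Ranges without 1 library that crossed 0 were, for Gpx1, −0.60 to 0.19 for heart against cortex at P75 and −0.21 to 0.27 for the cortex effect by age; for Gpx3, −0.55 to 0.41 in P1 cortex, −0.28 to 0.50 in cortex controls by age and −0.81 to 0.13 for the cortex effect by age; for Msrb1, −0.14 to 0.26 in P75 cortex, −0.16 to 0.29 for heart against cortex at P75, −0.18 to 0.23 in cortex controls by age, −0.12 to 0.16 for the heart effect by age and −0.0242 to 0.0864 in the mean; for Selenow, −0.18 to 0.41 for the heart effect by age; for Gpx4, −0.21 to 0.0808 in P1 heart and −0.35 to 0.71 in P75 heart; and for Sepsecs, −0.0024 to 0.27 in P1 heart and −0.40 to 0.0025 in P75 heart.

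The block changed no other member's call. No paired analysis was possible for the control contrasts between ages because different mice were used at the 2 ages. The blocks for the mean effect and for the effects by age, library totals, dropping the TRIzol P1 heart controls from the mean effect, and dropping the number 2 libraries outside the 2 P75 mutant comparisons were chosen after seeing the data. Selenoh in P75 heart mutants rests on 16 to 43 counts a library.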

Other observations

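Apln, which encodes the vascular peptide apelin and was the gene nearest to both Selenow and Selenoh after each other, was also called in the fit over the 4 tissue and age pairs, where it fell by 1.68 ± 0.23 on the log2 scale (SE, edgeR adjusted p = 0.00057). It is not a selenoprotein gene. Its level was 5.79 ± 1.85 CPM in P1 cortex controls and 2.19 ± 0.70 in mutants (SD, n = 3 each), and 20.8 ± 8.2 against 5.48 ± 2.87 CPM in P1 heart (SD, n = 3 each). At P75 it was 35.9 ± 5.6 against 20.9 ± 5.3 CPM in cortex and 18.5 ± 9.4 against 3.39 ± 2.25 CPM in heart (SD, n = 3 controls and 5 mutants). The heart fold changes of Apln, −1.89 ± 0.43 at P1 and −2.59 ± 0.57 at P75, were larger in size than those in cortex, −1.42 ± 0.42 and −0.81 ± 0.20 (edgeR adjusted p of 0.228 to 1.00). The heart minus cortex difference of the effect was −0.46 ± 0.62 at P1 and −1.79 ± 0.63 at P75 (edgeR adjusted p of 1.00 and 0.637).

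The remaining genes called over the 4 pairs, named after their values were seen, rose by 0.88 to 2.34 for Gstm1, Gsta4, Pir, Calr3, Htatip2, Ptgds and 2210408F21Rik. Rflnb, E2f1 and Igsf9 fell by 0.55, 1.07 and 1.28 on the log2 scale.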
